A study of Mus musculus with 12 samples.

Results

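The miR-29 family is a small group of microRNAs known for holding back the production of collagen and other matrix proteins. Its 6 members here are the mature mouse arms mmu-miR-29a-3p, mmu-miR-29b-3p, mmu-miR-29c-3p, mmu-miR-29a-5p, mmu-miR-29b-1-5p and mmu-miR-29c-5p, found by exact name among the 1906 mature microRNA names of a read count table. Small RNA had been sequenced from livers of Crl:CD1(ICR) mice, an outbred stock, at 8 weeks of age. The groups were 6 males and 6 females, and the labels name no other factor; each liver gave 1 library. The labels number the livers within a sex without naming litters or preparation days, so each p-value measures the spread between these livers. Library totals ran from 2953955 to 5516430 microRNA reads. In whole liver, fewer cells of a type and less microRNA per cell cannot be told apart.

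A microRNA hairpin is cut into a duplex, from which an Argonaute protein usually keeps the guide arm while the passenger arm is degraded. The guide pairs through its seed, bases 2 to 8, with sites in target messenger RNAs and lowers their stability and translation. In liver, miR-29 is made by hepatocytes and by non-parenchymal cells, and its loss from activated stellate cells accompanies fibrosis in mouse models, where transforming growth factor beta lowers it. The 3p arms are the guides. Mouse miR-29 genes form clusters of paired hairpins, with miR-29a beside miR-29b-1 and miR-29b-2 beside miR-29c.

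The mature sequences, from RefSeq (GRCm38.p6), are shown because the shared seed is what defines the family and the few remaining differences decide whether reads can be assigned. All 7 arms of the clusters matched by name. Seed bases are in capitals.
miR-29a-3p: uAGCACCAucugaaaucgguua
miR-29b-3p: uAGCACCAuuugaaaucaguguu
miR-29c-3p: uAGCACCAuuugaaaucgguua
miR-29a-5p: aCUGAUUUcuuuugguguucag
miR-29b-1-5p: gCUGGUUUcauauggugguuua
miR-29c-5p: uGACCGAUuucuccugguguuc
miR-29b-2-5p: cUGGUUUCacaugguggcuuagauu

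Among 1679 mature names in that table the 3p seed AGCACCA belonged to miR-29a-3p, miR-29b-3p and miR-29c-3p alone. Counted from the 5′ end, miR-29c-3p differs from miR-29a-3p by the single change C10U. miR-29b-3p differs from miR-29a-3p over the first 22 bases by C10U, G18A, U21G and A22U, and from miR-29c-3p by the last 3 of these, and it carries 1 further base at its 3′ end. The hexamer AGUGUU, described in human cells as a nuclear import element of miR-29b, starts at base 18 of miR-29b-3p. It was found in none of the other family arms, and in 12 of the 1679 mature names, or 0.715%, on the mature strand alone. The 5p arms share no seed, so the members of the family with a common set of seed sites are the 3 guides.

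The 4 hairpins, with both mature arms in capitals, show that miR-29b-3p is cut from each cluster while the 5p arms beside it differ.
Mir29a, chr6:31062660-31062747, minus strand: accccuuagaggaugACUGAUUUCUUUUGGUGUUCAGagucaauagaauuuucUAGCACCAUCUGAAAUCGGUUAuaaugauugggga
Mir29b-1, chr6:31063023-31063093, minus strand: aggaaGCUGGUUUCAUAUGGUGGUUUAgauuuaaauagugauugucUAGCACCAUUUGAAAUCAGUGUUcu
Mir29b-2, chr1:195037040-195037120, plus strand: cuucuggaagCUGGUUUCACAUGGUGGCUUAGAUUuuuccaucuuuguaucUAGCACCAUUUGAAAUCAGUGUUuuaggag
Mir29c, chr1:195037547-195037634, plus strand: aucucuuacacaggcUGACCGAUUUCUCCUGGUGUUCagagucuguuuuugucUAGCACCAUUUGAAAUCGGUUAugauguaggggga

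Those coordinates are on GRCm38.p6, whereas the count table is on mm9. On mm9, miR-29a-3p was counted at chromosome 6, 31012673 to 31012694, and miR-29c-3p at chromosome 1, 196863794 to 196863815. miR-29b-3p was counted at both clusters, at 31013025 to 31013047 on chromosome 6 and at 196863285 to 196863307 on chromosome 1. In GENCODE release M21, Mir29b-2 and Mir29c lie in exons of the non-coding host transcript A330023F24Rik, with an exon of Cd46, a complement regulator, annotated on the opposite strand. Mir29a lies in no other annotated gene, and Mir29b-1 shares 2 bases with an exon of the non-coding gene Gm27019. No member's counted locus overlapped that of another microRNA name.

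The complement of the guide seed, TGGTGCT in messenger RNA, was searched on the sense strand of annotated 3′ UTRs, using the longest per gene. It occurred in 6 of 8 matrix genes looked at: Col1a1, Col3a1, Col4a1, Col5a1, Eln and Fbn1, and in neither Col1a2 nor Sparc. Of all 20972 protein-coding genes with such a UTR, 13.1% held it, and 2.01% held it at least 2 times, as Col5a1 (4 matches), Eln (3) and Fbn1 (2) did. The stretches below, from fibrillar collagen, elastin and fibrillin transcripts, are shown with the match in capitals because these matrix genes are textbook miR-29 targets. A match is a description of the letters, and target messenger RNA was not measured here. The 8 genes were picked by name and not matched for UTR length, so their share cannot be compared with that of all genes. Other forms of site were not searched, so Col1a2 and Sparc may still hold one.
Col1a1: gaaggaatttcTGGTGCTatag
Col3a1: aaatgtctcaaTGGTGCTataa
Eln: ctcatcaacgtTGGTGCTactg
Fbn1: tgttgtctgttTGGTGCTagta

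miR-29a-3p made up nearly all of the family's reads in every liver. Levels are given as TMM-scaled CPM, the count as a rate over the library after scaling by edgeR's trimmed mean method (TMM); the arms are 22 or 23 bases long, and ligation efficiency, which differs between sequences in small RNA libraries, was not measured. miR-29a-3p had 284412 reads over the 12 livers and ranked 23 among the 419 microRNAs that passed a filter on low counts. miR-29c-3p had 6187 reads at rank 137, and miR-29b-3p had 4886 at rank 151. The 5p arms were far rarer, with 689 reads of miR-29c-5p, 121 of miR-29a-5p and 62 of miR-29b-1-5p. The order of the 3 guides by read count, a before c before b, held in 11 of the 12 livers, and in male 6 miR-29b-3p was above miR-29c-3p with 380 against 363 reads. Levels of miR-29b-3p and miR-29c-3p were thus close, and miR-29a-3p stood well above both.

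The family's summed level was higher in every male than in every female. It was lowest at 6449 CPM, median 7166 and highest at 8219 CPM in males, against 4513, 5176 and 5725 CPM in females. As a share of the library without TMM scaling, males had 0.705 ± 0.0806% and females 0.532 ± 0.0406% (SD, n = 6 each), again without overlap. Of the family's reads, miR-29a-3p took 95.9 ± 0.616% in males against 96.0 ± 0.235% in females (SD, n = 6). The summed level therefore follows that one arm, and the other members need their own values.

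Libraries of the males were less alike than those of the females. The median absolute log2 deviation of a library from the rest of its sex was 0.345 in male 1 and 0.309 in male 6. It lay between 0.150 and 0.232 in the other livers. Where leaving out male 1 or male 6 changed a call on a member or moved its value by over 1.5 times, both values are given.

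The 3 guides were higher in males, by 1.41- to 1.56-fold. Of the 5 members that passed the filter, the quasi-likelihood test of edgeR, adjusted by Benjamini-Hochberg over all 419 tested names, called 3, all higher in males. Over all tested names 8.35% were called higher in males and 16.9% in either direction, and 29.4% had an unadjusted p under 0.05. The median log2 fold change was 0.50 over the tested members and -0.02 over all tested names, of which 47.0% were positive. The fibrosis-related role of the family was known when it was picked, as were earlier results of these data, so the count describes these members only.

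mmu-miR-29a-3p, the most abundant guide, was lowest at 6171, median 6854 and highest at 7979 CPM in males, and 4336, 4965 and 5503 CPM in females. All 6 males lay above every female, a lack of overlap seen in the male direction for 4.53% of tested names and in either direction for 8.11%. Males averaged 7008 ± 669 CPM and females 4929 ± 415 CPM (SD, n = 6 each). The fold was 1.42 with a 95% interval of 1.27 to 1.59, or a log2 fold change of 0.51 with standard error 0.07 (edgeR adjusted p = 0.000667). Among the microRNAs called higher in males it came by abundance right behind miR-21a-5p, miR-22-3p and miR-99a-5p.

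mmu-miR-29b-3p, the guide with the 3′ hexamer, was lowest at 107.8, median 128 and highest at 135 CPM in males, and 68.6, 80.0 and 87.6 CPM in females. Here too the sexes did not overlap. The mean was 125 ± 10.1 CPM against 80.1 ± 7.01 CPM (SD, n = 6 each), a fold of 1.56 with a 95% interval of 1.37 to 1.78 and a log2 fold change of 0.64 (edgeR adjusted p = 0.000398). Its level is a sum over both clusters. The chromosome 1 copy held 2425 reads and the chromosome 6 copy 2461, and the share of the chromosome 1 copy stayed between 47.7% and 52.1% in all livers. The split varied less than sampling alone gives, with a chi-square of 0.316 per degree of freedom over 11, so which cluster the reads came from cannot be told apart.

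mmu-miR-29c-3p, the guide of the Mir29c hairpin on chromosome 1, was lowest at 118, median 163 and highest at 168 CPM in males, and 85.4, 109 and 121 CPM in females. Male 1, at 118 CPM, lay within the female range, and the other 5 males were above every female. The mean was 151 ± 22.5 CPM against 107 ± 13.8 CPM (SD, n = 6 each), a fold of 1.41 with a 95% interval of 1.18 to 1.69 and a log2 fold change of 0.50 (edgeR adjusted p = 0.0143). Without male 1 and male 6 together, an alternative added once the values were known, the log2 fold change was 0.61, and all 3 guides were still called. Because miR-29c-3p differs from miR-29a-3p by 1 base, misread or mismatched reads of the abundant arm could be counted for the rare one. The count of miR-29c-3p was between 1.49% and 2.52% of that of miR-29a-3p over the livers, and the sources used here do not give the mismatch settings of the alignment. How far such reads contribute was not tested.

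**Figure D1:**
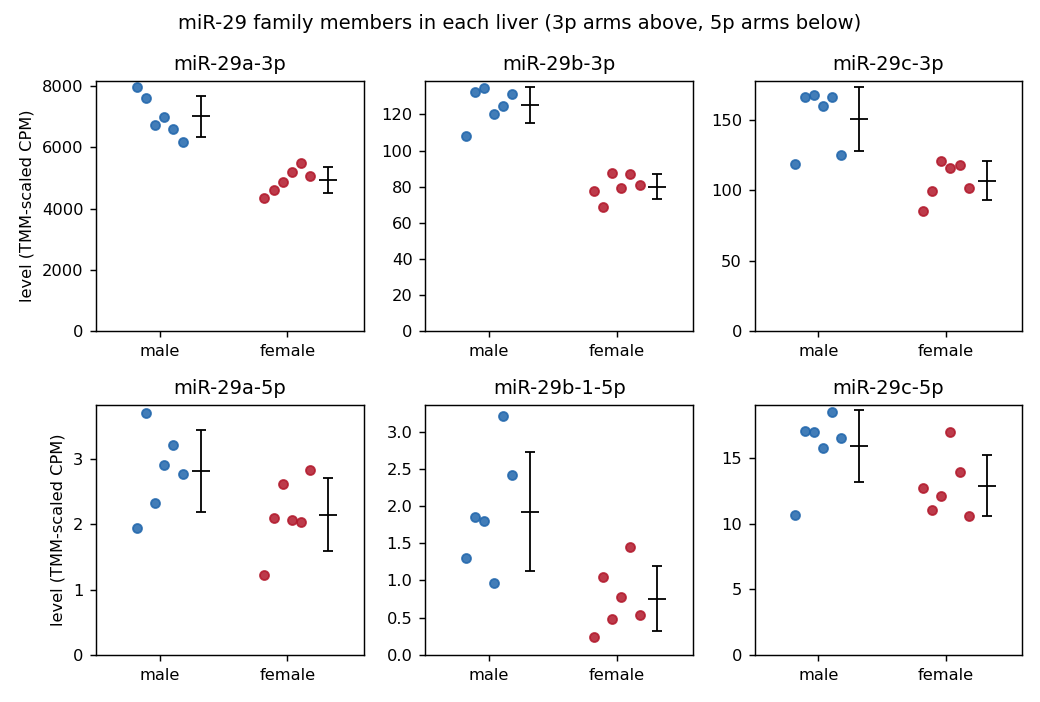
Level of each member in each liver (points, TMM-scaled CPM, linear axes from 0) with the mean and SD of the 6 livers of a sex beside them. For miR-29a-3p and miR-29b-3p all males lie above all females, for miR-29c-3p 5 of 6 do, and the 5p arms overlap between the sexes.

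The 5p arms had higher means in males but neither of those tested, miR-29c-5p and miR-29a-5p, passed. mmu-miR-29c-5p, the most abundant of them, was lowest at 10.7, median 16.8 and highest at 18.5 CPM in males, and 10.6, 12.4 and 17.0 CPM in females. The sexes overlapped only through male 1, which was near the lowest female, and female 4, which was near the median male. The mean of miR-29c-5p was 15.9 ± 2.73 CPM against 12.9 ± 2.34 CPM (SD, n = 6 each), a fold of 1.24 with a 95% interval of 0.976 to 1.57 (edgeR adjusted p = 0.216). Its log2 fold change of 0.31 was 0.39 without male 1 (edgeR adjusted p = 0.0695) and 0.41 without female 4 (edgeR adjusted p = 0.100).

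mmu-miR-29a-5p was lowest at 1.94, median 2.84 and highest at 3.71 CPM in males, and 1.22, 2.08 and 2.83 CPM in females. With 5 to 18 reads a liver, its fold of 1.31 had a 95% interval of 0.935 to 1.83 (edgeR adjusted p = 0.321), which includes the folds of the guides. mmu-miR-29b-1-5p, with 1 to 13 reads a liver, did not pass the filter. It was lowest at 0.971, median 1.83 and highest at 3.21 CPM in males, and 0.245, 0.652 and 1.45 CPM in females, where 3 reads correspond to between 0.530 and 1.04 CPM depending on the liver. Thus 4 of 6 males lay above every female, and 4 of 6 females had 3 reads or fewer. With no filter on low counts, over 1292 names, its log2 fold change was 1.41 with standard error 0.45 (edgeR adjusted p = 0.0835). The neighbouring arm miR-29b-2-5p is not among the members. Its males averaged 7.59 ± 0.980 CPM and its females 5.98 ± 1.94 CPM (SD, n = 6 each), a fold of 1.28 with a 95% interval of 0.942 to 1.74 (edgeR adjusted p = 0.277).

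**Figure D2:**
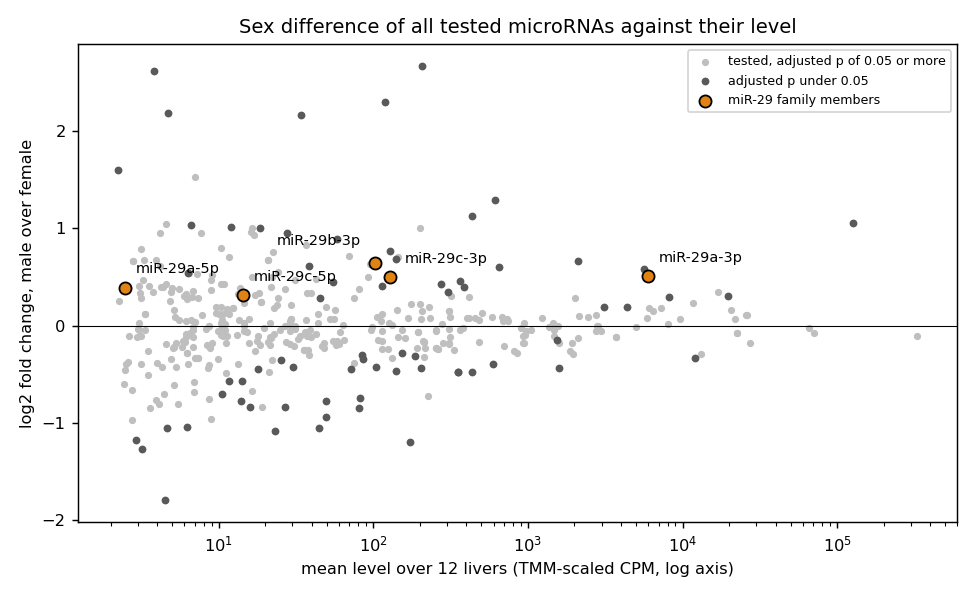
Log2 fold change of male over female against the mean level (TMM-scaled CPM, log axis) for all 419 tested microRNAs, with those under an adjusted p of 0.05 in dark grey and the 5 tested members in orange. The 3 guides lie at log2 fold changes of 0.50 to 0.64, and the tested 5p arms lie lower, at 0.39 and 0.31.

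Whether guide and passenger arms of a hairpin differed by unlike amounts was asked with the log2 ratio of the arms in each liver, which cancels library scaling apart from a pseudocount of 1 CPM. miR-29a is among the most one-sided of the hairpins compared, which are limited to those whose arms both passed the filter. Some with both arms tested, such as miR-122, are not among the pairs. miR-29a gave 2351 reads of the 3p arm for each read of the 5p arm. Its ratio ranked 2 in favour of the 3p arm among 123 arm pairs, of which 49 had more 3p. By size in favour of either arm it ranked 5. miR-29c gave 8.98 reads of the 3p arm per 5p read, at rank 23, and miR-29b-3p had 12.8 reads per read of miR-29b-1-5p and miR-29b-2-5p together. miR-29b and miR-29c thus lay close to each other in arm balance, and miR-29a stood apart from both.

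The arm ratios did not differ detectably between the sexes. limma called 2.44% of the 123 pairs in either direction and none of the family's 3. At an unadjusted p of 0.05, 20.3% of all pairs and 0 of these 3 passed. The log2 ratio of miR-29a-3p over miR-29a-5p was 10.86 ± 0.30 (SD, n = 6) in males against 10.63 ± 0.23 (SD, n = 6) in females, or 0.23 higher with a 95% interval of -0.10 to 0.55 (limma adjusted p = 0.413). It was 0.11 without male 1 (limma adjusted p = 0.565). With a pseudocount of 0.5 CPM it was 0.18 (limma adjusted p = 0.614). It reached 0.38 (limma adjusted p = 0.0404) when the pseudocount was 5 CPM, above the level of the 5p arm itself. Its size thus depends on the pseudocount. miR-29b-3p was to be set against miR-29b-1-5p, which did not pass the filter, so miR-29b-2-5p took its place. The miR-29b-3p count sums both clusters, so this ratio is not that of a single hairpin. There the difference was 0.30 (with no filter, miR-29b-1-5p itself gave -0.09, limma adjusted p = 0.848), with an interval of -0.06 to 0.66 (limma adjusted p = 0.336). For miR-29c-3p over miR-29c-5p the difference was 0.20, with an interval of -0.07 to 0.48 (limma adjusted p = 0.364). All 3 intervals include no difference.

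**Figure D3:**
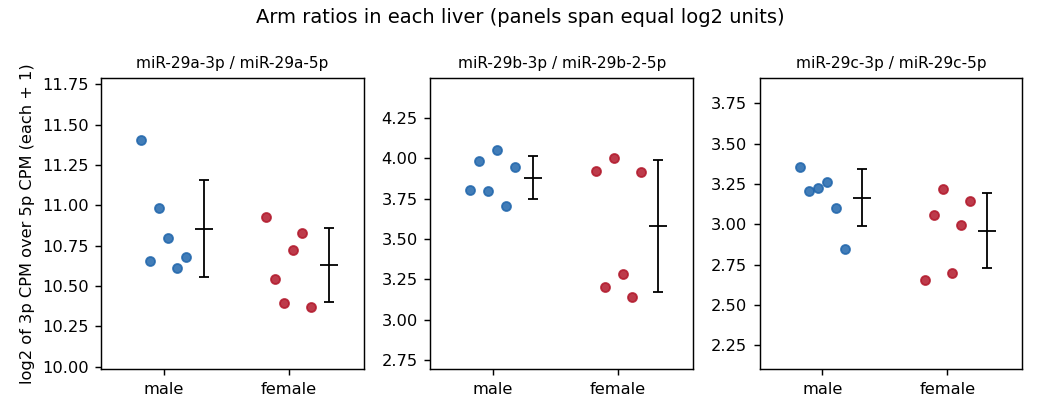
Log2 ratio of the 3p over the 5p arm (CPM plus 1) in each liver for the 3 pairs that passed the filter, with the mean and SD of each sex; axes do not start at 0 and each panel spans the same number of log2 units. The points of the sexes overlap in all 3 panels, and male 1 is the highest liver for miR-29a.

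Whether the guides moved by unlike amounts was asked with the ratios of their raw counts within each liver, by exact permutation (two-sided, 924 arrangements of the livers), with p-values adjusted over the 6 ratios tested (3 between 3p arms and 3 between 5p arms). miR-29b-3p was at 1.35% of the miR-29a-3p count in the lowest male, 1.81% at the median and 2.13% in the highest, against 1.48%, 1.59% and 1.80% in females. The mean log2 ratio differed by 0.14, with an interval by inversion of the test of -0.11 to 0.35 (exact permutation p = 0.216, adjusted p = 0.325). That difference was 0.22 without male 1 and 0.087 without male 6. miR-29c-3p against miR-29a-3p differed by -0.02, with an interval of -0.29 to 0.23 (exact permutation p = 0.933, adjusted p = 0.933). Male 1 had the lowest ratio of all livers, 1.49%, and without it the difference was 0.089. It was -0.0016 without male 6, 0.13 without both and 0.02 without female 3, so its direction rests on single livers. miR-29c-3p against miR-29b-3p differed by -0.15, with an interval of -0.38 to 0.07 (exact permutation p = 0.154, adjusted p = 0.307). It was -0.089 without male 6 and -0.042 without male 1 and male 6 together. No pair of guides was shown to move unequally, and the intervals leave room for unequal changes of the sizes given.

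**Figure D4:**
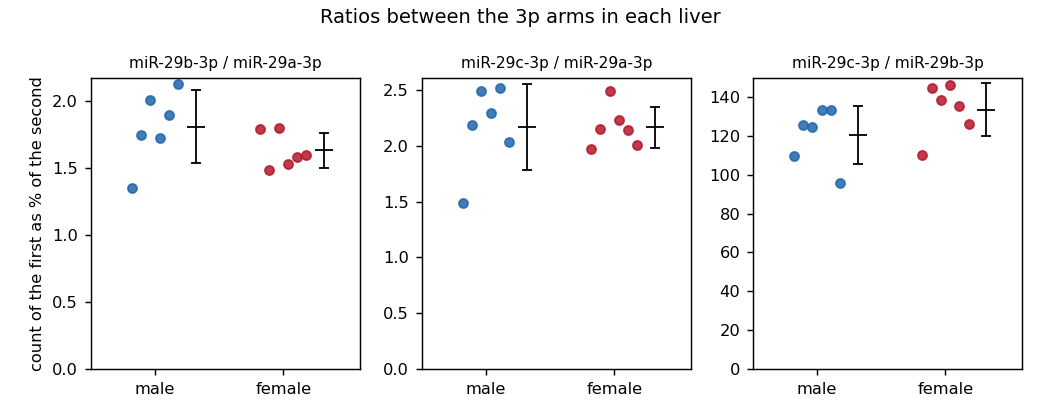
Count of one guide as a percentage of another in each liver, with the mean and SD of each sex. The sexes overlap for every pair; male 1 is lowest in both ratios to miR-29a-3p, and male 6 is the one liver in which miR-29c-3p falls under 100% of miR-29b-3p.

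Between the 5p arms, miR-29b-1-5p against miR-29a-5p, both of the chromosome 6 cluster, differed by 1.06 on the log2 scale toward males (exact permutation p = 0.0411, adjusted p = 0.123). miR-29c-5p against miR-29b-1-5p differed by -1.17 (exact permutation p = 0.0152, adjusted p = 0.0909), and miR-29c-5p against miR-29a-5p by -0.10 (exact permutation p = 0.682, adjusted p = 0.818). When 1 liver was left out, the last of these ran from -0.25 without female 6 to 0.048 without female 1. None passed after adjustment, although both ratios that involve miR-29b-1-5p did without female 5 (exact permutation, adjusted p = 0.0455). Those ratios rest on miR-29b-1-5p counts of 1 to 13 reads. With 1 count added, as planned for counts near 0, miR-29b-1-5p against miR-29a-5p differed by 0.80 (exact permutation, adjusted p = 0.136). With the same addition, miR-29c-5p against miR-29b-1-5p differed by -0.88 (exact permutation, adjusted p = 0.136).

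Within a sex, the correlations between the guides ran from -0.02 to 0.59, and whether they differ was not tested. After the mean of each sex was taken off, the log2 levels of miR-29a-3p and miR-29b-3p had a Pearson correlation of -0.02 over the 12 livers. It was 0.26 between miR-29a-3p and miR-29c-3p and 0.59 between miR-29b-3p and miR-29c-3p. Male 1 was the highest male for miR-29a-3p (7979 CPM) and the lowest for miR-29b-3p (107.8 CPM). How far the correlations rest on that liver was not tested. miR-29b-3p has a hairpin beside each of the other guides, and which hairpin its reads came from cannot be told apart. These values describe 12 libraries that also share depth and scaling. By the same measure the microRNAs most like miR-29a-3p were miR-378a-5p (0.89), let-7a-5p (0.89), miR-378b (0.87), miR-378c (0.86) and miR-455-3p (0.86). Those most like miR-29b-3p were miR-340-3p (0.77), miR-28a-5p (0.75), miR-185-5p (0.66), miR-16-1-3p (0.65) and miR-3069-3p (0.63). For miR-29c-3p they were miR-3073a-3p and miR-3073b-5p (0.91 each), which overlap and had the same counts, and miR-3073b-3p (0.88), miR-3073a-5p (0.87) and miR-532-3p (0.73). No other miR-29 arm was among the 5 nearest of any guide.

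Other microRNAs tied to liver fibrosis did not share a direction. A list of 10 further microRNAs described as antifibrotic had 0 called in either direction by edgeR and 0 by DESeq2, with 2 at an unadjusted p under 0.05 by edgeR and a median log2 fold change of 0.08. Over all tested names edgeR called 16.9%, with a median of -0.02. Its most abundant members were miR-122-5p, the dominant hepatocyte microRNA (-0.10, edgeR adjusted p = 0.132), miR-194-5p (-0.18, adjusted p = 0.33) and miR-30a-5p, a repressor of epithelial-mesenchymal transition (0.16, adjusted p = 0.559). The count depended on male 1: without it, miR-30a-5p and miR-30c-5p were called higher in males, and without male 1 and male 6 together miR-101a-3p was as well. It also depended on which miR-30 arms were listed. Of those left off the list, miR-30e-5p was called higher in males (0.58, edgeR adjusted p = 0.00314) and miR-30d-5p was not (0.06, adjusted p = 0.341). The median of this list turned to -0.04 with scaling by library totals only, where miR-122-5p was called lower in males.

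Of 11 microRNAs described as profibrotic, 3 were called higher and 2 lower in males, with a median of -0.17. Over all tested names 8.35% were called higher in males and 16.9% in either direction. Those that rose were miR-21a-5p, which targets inhibitors of growth factor signalling (2.08-fold, edgeR adjusted p = 0.000153), and the clustered repressors of the cell cycle inhibitor p27, miR-222-3p (1.70-fold, adjusted p = 0.00343) and miR-221-3p (1.52-fold, adjusted p = 0.00722). Those that fell were miR-34a-5p, a target of p53 (log2 fold change -0.77, adjusted p = 0.0294), and miR-181b-5p (-0.42, adjusted p = 0.0218). miR-27b-3p, among the most abundant of the list with miR-21a-5p and miR-27a-3p, had -0.30 (adjusted p = 0.0521), and miR-27a-3p had -0.18 (adjusted p = 0.296). The same 5 were called without male 1, and DESeq2 called miR-27b-3p as well. So the miR-29 guides rose in the same livers in which miR-21a-5p, commonly described as acting in the opposite sense, was also high.

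**Figure D5:**
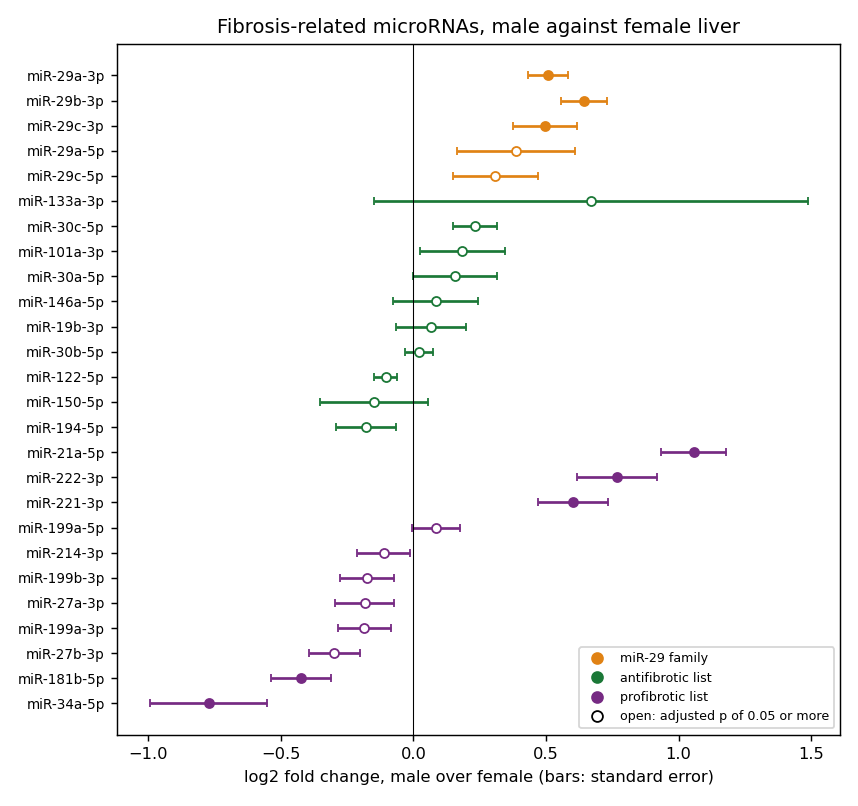
Log2 fold change of male over female with its standard error for the 5 tested members and for both fibrosis lists; filled points have an adjusted p under 0.05. The guides sit at 0.50 to 0.64, the antifibrotic list has no filled point, and the profibrotic list has 3 filled points to the right of 0 and 2 to the left.

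The libraries carried the microRNAs of liver: miR-122-5p had a mean of 319017 CPM over males against 343046 CPM over females. In bulk liver the levels of marker microRNAs show which cells the libraries drew on. By edgeR, 0 markers of any list were called higher in males, against 8.35% of all tested names, and 2 were called lower. Of all 419 tested names, 36 were called lower in males. Whether the marker counts differ from these shares was not tested. Of 7 markers of stellate cells, fibroblasts and smooth muscle, some of which the profibrotic list also holds, 1 was called lower in males, miR-143-3p (-0.34, edgeR adjusted p = 0.0263). Their summed level ran from 10061 to 15734 CPM in males and from 14543 to 17423 CPM in females. Of 5 immune markers 1 was called lower in males, miR-142a-5p (-0.47, adjusted p = 0.0256), with a summed level of 500 to 986 CPM against 799 to 1098 CPM. That immune call was lost without male 1 and male 6 together. The 2 endothelial arms of miR-126a ran from 21232 to 28894 CPM in males and from 24161 to 27335 CPM in females. The 3 erythroid markers ran from 828 to 3476 against 1637 to 2423 CPM, the 4 hepatocyte markers, of which miR-122-5p and miR-194-5p are also on the antifibrotic list, from 459533 to 497317 against 488782 to 538705 CPM, and the 3 muscle markers from 8.03 to 130 against 9.05 to 39.8 CPM. edgeR called 0 of the tested members of these 4 lists, with 1 hepatocyte and 1 erythroid marker at an unadjusted p under 0.05. DESeq2 called 1, the erythroid miR-144-3p, lower in males. With scaling by total counts alone, miR-122-5p, miR-126a-3p and miR-144-3p were each called lower in males. No marker of these lists was at 0. The part of these marker levels in the rise of the guides was not tested.

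The authors' deposited table, made per locus over all 2044 rows with edgeR, also put miR-29b-3p above the other guides. In the authors' deposited table, log2 fold changes were 0.54 for miR-29a-3p (FDR 0.00415) and 0.54 for miR-29c-3p (FDR 0.0494). For miR-29b-3p the authors' deposited table gave 0.69 at the chromosome 1 copy (FDR 0.000258) and 0.67 at the chromosome 6 copy (FDR 0.00109). In the authors' deposited table, miR-29b-1-5p had 1.41 (FDR 0.105) and miR-29c-5p 0.36 (FDR 0.858).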

How the data were processed

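Small RNA of 12 mouse livers was measured as raw read counts per mature microRNA locus, deposited by the authors on mm9. Per the submitters' processing notes, the tools were Bowtie2, bedtools, Trim Galore and edgeR. The sources used here give no versions or mismatch settings, and do not state the use of strand. However, miR-374b-5p and miR-374c-3p both had a mean of 354 CPM, and miR-374b-3p and miR-374c-5p both had 7.40 CPM. These arms are mirrored, so reads there were counted without regard to strand. Such reads enter the shares over all names and arm pairs under both names. How far opposite-strand reads, as from the Cd46 exon, count for the members was not tested. Per the file headers, the deposited table also holds the authors' log2 fold changes, mean log2 CPM, p-values and false discovery rates. Rows sharing a name were summed, which joins the miR-29b-3p loci.

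Sex was tested with edgeR 4.0.16 (R 4.3.3) by the quasi-likelihood test after TMM scaling and filterByExpr, with Benjamini-Hochberg adjustment over all tested names and a threshold of 0.05. Arm ratios were tested with limma 3.58.1 and ratios between members by exact permutation. DESeq2 1.42.0, other scalings, filters, pseudocounts, a replicate block and leaving out livers were alternatives. On simulated data of 6 against 6 livers, the edgeR test recovered 67.7% of 1.5-fold and 96.9% of 2-fold changes. Folds under 1.5 are not among those simulated. The permutation test was checked on made-up values with a known shift. Intervals are 95% intervals, and a floor of 3 counts covers counting error only. Without molecular identifiers, reads are not independent molecules. All members and the other miR-29 arm were named, with the 5 nearest names by correlation for each guide, and in lists every called member and the 3 most abundant. The members, lists and tests were chosen with earlier results of these data known.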

Additional observations from a re-analysis of the deposited data

Results flagged for a closer look

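In male 1, miR-29c-5p was at 10.7 CPM, far under the other males, of which the nearest was at 15.8 CPM. In the same liver miR-29a-3p took 97.1% of the family's reads, above the other males, of which the nearest was at 95.9%. In female 3 that share was 95.6%, below the other females, of which the nearest was at 96.0%. Each value stood apart from the rest of its sex by Dixon's criterion. Chance alone sets apart about 1 in 20 groups, or 1.8 of the 36 groups examined.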

How the results depend on the processing

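miR-29a-3p, miR-29b-3p and miR-29c-3p were called higher in males under all 21 alternatives run, with log2 fold changes from 0.40 to 0.55, 0.54 to 0.68 and 0.39 to 0.61, and miR-29c-3p came nearest to the threshold, at an edgeR adjusted p of 0.0402. Scaling by total counts alone moved the median of all tested names to -0.12. Calls over all names ranged from 47 (without male 3) to 82 when 1 liver was left out, against 71. Those higher in females ranged from 19 to 39, and were 58 with total counts alone and 19 with no filter, against 36. Arm ratio calls ranged from 2 to 5 (without male 2), and were 7 with a pseudocount of 5 CPM, 1 with both arms at a mean of 10 CPM or more, and 0 by limma with no filter, where 56 of 384 pairs had an unadjusted p under 0.05, against 3.

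The difference in the miR-29c-3p to miR-29a-3p ratio ran from -0.064 to 0.089 when 1 liver was left out, turning positive without male 1 (0.089) or female 3 (0.02), and was 0.13 without male 1 and male 6 together, a check added after the data were seen. For miR-29c-5p to miR-29a-5p it ran from -0.25 to 0.048, positive without female 1. For miR-29b-1-5p to miR-29a-5p it ran from 0.91 to 1.30, and for miR-29c-5p to miR-29b-1-5p from -1.37 to -0.89, and without female 5 both passed (exact permutation, adjusted p = 0.0455). The cause of these shifts was not tested.

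The labels number livers within each sex and name no pairing. Deviations of same-numbered livers had correlations from -0.13 to 0.30. Such values cannot show whether same-numbered livers shared a litter or a preparation day. With the number as a block, calls fell to 48, of which 22 were higher in females, and the same 3 guides were called. Depth limits miR-29b-1-5p and miR-29a-5p most.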
